A study of Sus scrofa with 14 samples.

Results

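The proteasome and immunoproteasome subunits were taken as the genes with a single symbol starting with PSMA, PSMB, PSMC, PSMD, PSME, PSMF or PSMG in the array's probe annotation. They numbered 40 of the 6765 genes named in that way, each read by the probe set with the highest mean level. The tissue was the endometrium, the inner lining of the uterus, of crossbred cyclic gilts (young female pigs) aged 8 to 10 months, and each of 14 gilts gave 1 porcine expression array. Gilts were given estrogen, or corn oil as the control, at the start of estrus and again a day later, and their uteri were flushed and sampled on day 13 or day 15 of pseudo-pregnancy. The groups were control day 13 (n = 4), control day 15 (n = 3), estrogen day 13 (n = 4) and estrogen day 15 (n = 3). The labels used here give neither the estrogen compound nor its dose, and all gilts shared the cycle stage at dosing and the flushing.

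The proteasome is the cell's main machine for breaking down proteins marked with ubiquitin. Its 20S core is a barrel of alpha and beta rings, in which PSMB5, PSMB6 and PSMB7 are the standard cutting subunits, and its 19S cap, of ATPases and non-ATPase subunits, recognises, unfolds and feeds in the substrates. Interferon gamma makes cells replace the standard cutters with PSMB8, PSMB9 and PSMB10, which gives the immunoproteasome, and raises PSME1 and PSME2, the subunits of the PA28 activator; the peptides then made favour loading on class I molecules. In the pig reference gene order PSMB8 lies between TAP2 and TAP1, the peptide transporter genes of the class II region, with PSMB9 beyond TAP1, and PSME2 and PSME1 lie on either side of EMC9, next to IRF9.

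The 40 genes comprised 4 of the 5 listed members of the immunoproteasome and its activator (PSMB8, PSMB10, PSME1 and PSME2), the 3 constitutive catalytic subunits, 7 alpha subunits, 4 non-catalytic beta subunits, 5 ATPases and 10 non-ATPase subunits of the 19S cap, 3 other activators or inhibitors and 4 assembly chaperones. PSMB9, PSMA8, PSMB11, PSMC4, PSMD7, PSMD9, PSMG2, PSMG4 and PSMC3IP had no probe set under the rule and were not analysed here. All 40 lay above the level under which the dimmest 30% of probe sets were left out, so all were among the 16754 probe sets tested. The markers given for these genes, PSMB8, PSMB10 and PSME2, were measured on every array. Levels are given as log2(signal + 16), differences and folds are on that scale, and a call is an adjusted p under 0.05 in limma's moderated test with Benjamini-Hochberg adjustment over all probe sets tested.

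The arrays differed little in scale, with median signals of 177 to 217. For 3 arrays the median correlation with the other arrays was 0.860 to 0.885, against 0.927 to 0.952 for the remaining 11. They are replicate 1 of the day 13 controls, replicate 3 of the day 15 controls and replicate 2 of the day 15 estrogen gilts. Results that rest on them are given with and without them; without them the groups hold 3, 2, 4 and 2 gilts. All 13 measured epithelial markers and all 6 measured genes typical of endometrium were bright enough to be tested. The summed signal of those 6 genes was lowest on control day 13 replicate 1, at 33384, against 44788 to 82238 on the other arrays. The genes did not go together there. ACP5 and RBP4 had their lowest log2 levels of all arrays, 11.40 and 12.26. SPP1, PGR and ESR1 had their highest of all arrays, 14.40, 11.32 and 9.88, and STC1, at 9.50, lay within the range of the others. The p-values set each difference against the spread between gilts within the groups. Nothing in the labels says whether gilts shared a pen, litter or processing day, so it is not known whether they were independent.

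The widest contrast among the members was between day 13 and day 15 in estrogen-treated gilts, and it lay in the immunoproteasome list. All 4 measured members of that list were higher in every day 15 estrogen gilt than in every day 13 estrogen gilt, by 1.57-fold to 3.15-fold, whereas the 3 constitutive catalytic subunits differed by 1.16-fold to 1.18-fold with overlapping groups. Groups did not overlap in that direction for 7.96% of all probe sets tested. With all arrays none of the 40 members was called, nor was any probe set (0%). Without the 3 arrays that stand apart, only replicates 1 and 3 remained among the day 15 estrogen gilts. In that fit PSMB8, PSMB10 and PSME2 rose, where 1.32% of all probe sets were called. The same 3 passed with array quality weights (1% called) and without control day 13 replicate 1 alone (0.263% called), and PSMB8 and PSMB10 passed in a fit of the estrogen groups only (0.591% called). With the replicate number as a block in the fit without the 3 arrays, an alternative chosen after seeing the data, PSMB8 alone passed (limma adjusted p = 0.0398; 0.597% called), and PSMB10 and PSME2 had adjusted p of 0.0597 and 0.0683 in limma. With the block no member passed with array weights or without control day 13 replicate 1 (limma adjusted p of 0.0625 and 0.0639 for PSMB8). Nor did any member pass without the 3 arrays and with an RNA quality score, described below, in the fit.

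PSMB8, the inducible subunit that takes the place of PSMB5, had log2 levels of 9.24, 9.18, 9.05 and 9.0 in the estrogen gilts at day 13 and 10.43, 10.84 and 11.05 at day 15. In controls the levels were 10.90, 8.59, 9.15 and 9.55 at day 13 and 10.17, 10.11 and 10.06 at day 15. The day 15 estrogen gilts were thus above all day 13 estrogen gilts and all day 15 controls, and the first control gilt at day 13 was as high as they were. The day difference under estrogen was 1.65 ± 0.38 (SE), with an unadjusted p of 0.000739 and an adjusted p of 0.206 in limma. Leaving out the 3 arrays gave 1.62 ± 0.25 (SE), with an adjusted p of 0.0125 in limma.

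PSMB10, the inducible counterpart of PSMB7, had levels of 8.55, 8.82, 8.81 and 8.61 at day 13 and 9.48, 10.18 and 10.19 at day 15 under estrogen. Its control levels were 10.18, 8.31, 8.77 and 8.92 at day 13 and 8.94, 9.22 and 9.40 at day 15. Again only the first day 13 control reached the level of the day 15 estrogen gilts. The day difference under estrogen was 1.25 ± 0.34 (SE; limma adjusted p = 0.301), and 1.14 ± 0.23 without the 3 arrays (limma adjusted p = 0.0357).

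PSME2, the beta subunit of PA28, stood at 10.73, 10.71, 10.97 and 10.74 in day 13 estrogen gilts and at 11.40, 11.82 and 11.83 in day 15 estrogen gilts. Controls had 11.64, 10.60, 10.76 and 10.79 at day 13 and 10.88, 10.75 and 11.25 at day 15. The estrogen groups did not overlap, and the day 15 controls lay below all day 15 estrogen gilts. The day difference under estrogen was 0.89 ± 0.23 (SE; limma adjusted p = 0.276), and 0.83 ± 0.16 without the 3 arrays (limma adjusted p = 0.0301).

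PSME1, the alpha subunit of PA28, stood at 11.34, 11.30, 11.53 and 11.09 in day 13 estrogen gilts and at 11.82, 12.13 and 11.94 in day 15 estrogen gilts. Controls had 12.11, 11.28, 11.25 and 11.19 at day 13 and 11.27, 11.32 and 11.71 at day 15. Its day difference under estrogen, 0.65 ± 0.22 (SE), was the smallest of the 4 and was not called with all arrays (limma adjusted p = 0.437) or without the 3 arrays (0.57, limma adjusted p = 0.0836).

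**Figure D1:**
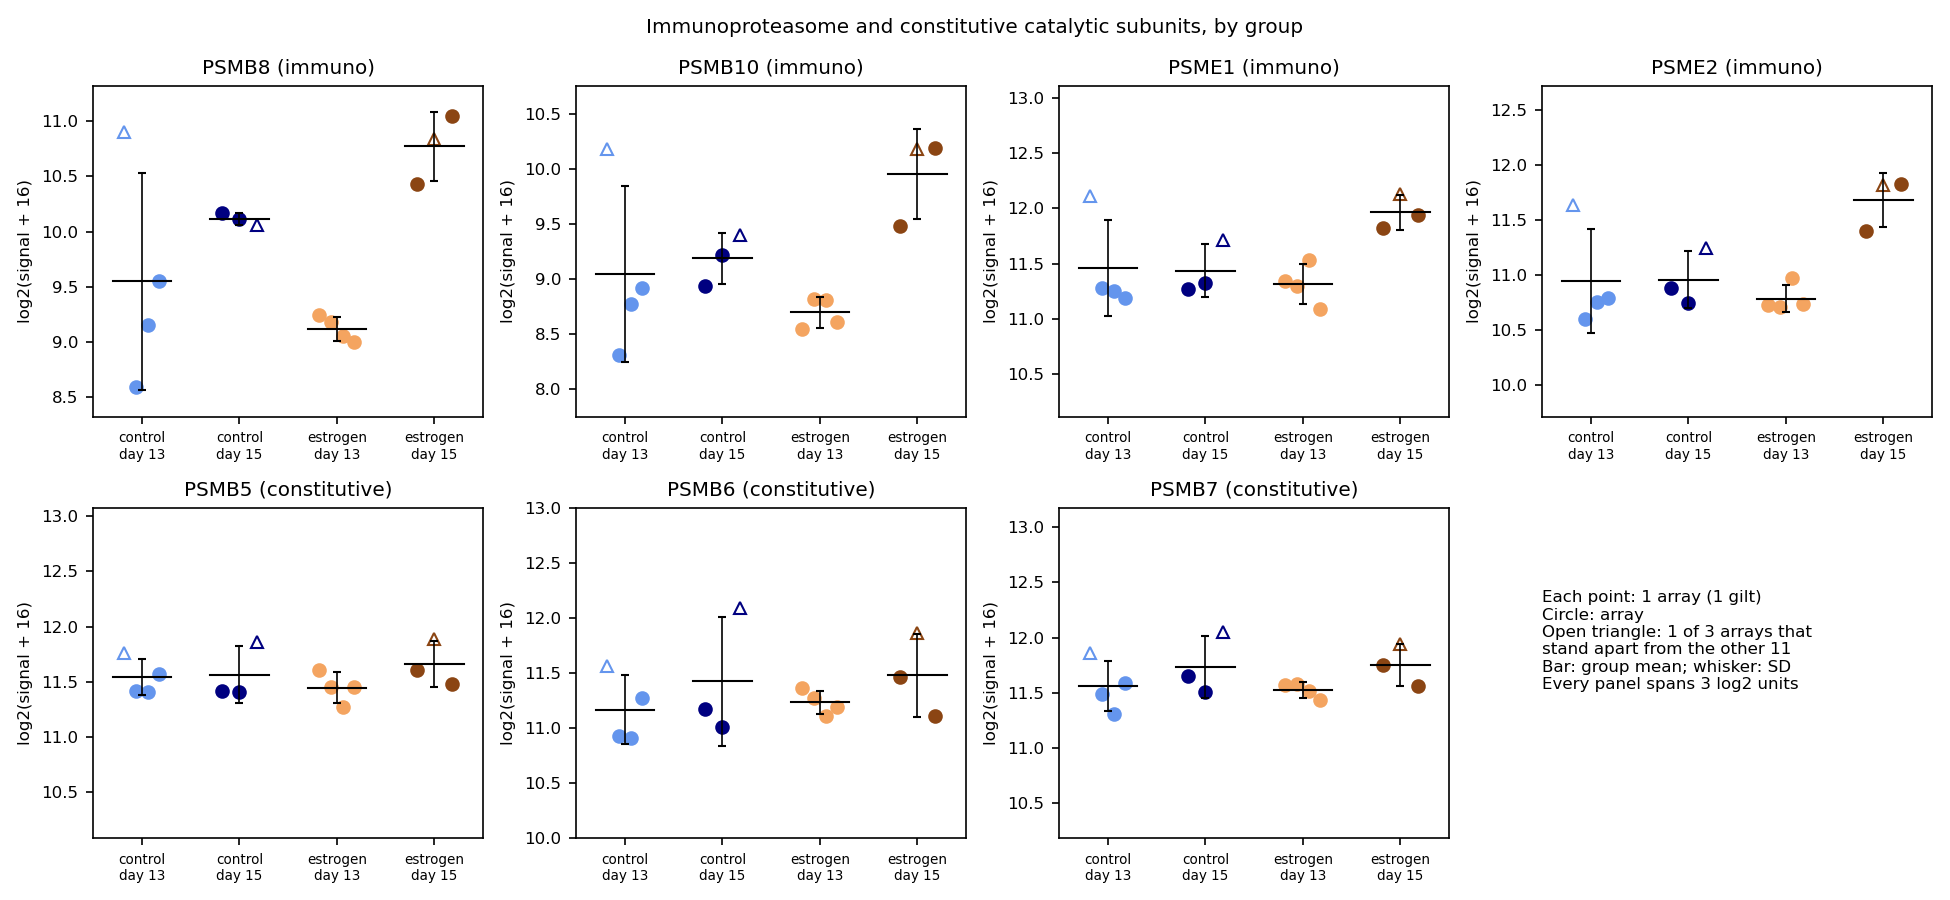
Log2(signal + 16) of the 4 measured immunoproteasome list members and the 3 constitutive catalytic subunits on each array, by group (n = 4, 3, 4 and 3); bars are group means, whiskers SDs, and open triangles the 3 arrays that stand apart. PSMB8 under estrogen lies at 9.0 to 9.24 on day 13 and 10.43 to 11.05 on day 15, while PSMB5, PSMB6 and PSMB7 overlap between the days.

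The constitutive catalytic subunits differed far less between the days. PSMB5, which carries the chymotrypsin-like site, had levels of 11.61, 11.45, 11.27 and 11.45 at day 13 and 11.61, 11.89 and 11.48 at day 15 under estrogen, a difference of 0.22 ± 0.17 (SE). PSMB6, which carries the caspase-like site, had 11.36, 11.27, 11.11 and 11.19 and then 11.46, 11.86 and 11.11, a difference of 0.24 ± 0.26 (SE). PSMB7, which carries the trypsin-like site, had 11.57, 11.58, 11.52 and 11.43 and then 11.75, 11.94 and 11.56, a difference of 0.23 ± 0.17 (SE). The day 15 gilt with the highest value of all 3 was replicate 2, an array that stands apart, and without the 3 arrays the differences were 0.10, 0.05 and 0.13. In controls the same subunits spanned 11.41 to 11.76, 10.91 to 11.56 and 11.31 to 11.86 at day 13 and 11.41 to 11.86, 11.01 to 12.09 and 11.51 to 12.05 at day 15, with the highest day 15 value on replicate 3, which also stands apart.

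Set against their standard counterparts on the same array, the inducible subunits separated the estrogen days as well. PSMB8 relative to PSMB5, each centred on its own mean over the 14 arrays, was -0.72 to -0.48 in the day 13 estrogen gilts and 0.55 to 1.30 in the day 15 estrogen gilts, against -1.09 to 0.87 and -0.07 to 0.49 in the day 13 and day 15 controls. PSMB10 relative to PSMB7 was -0.56 to -0.25 and 0.19 to 1.09 under estrogen, against -0.72 to 0.77 and -0.25 to 0.16 in controls. In both measures every day 15 estrogen gilt was above every day 15 control, and among the day 13 controls the first gilt held the highest value. These relative values are a description and carry no test.

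**Figure D2:**
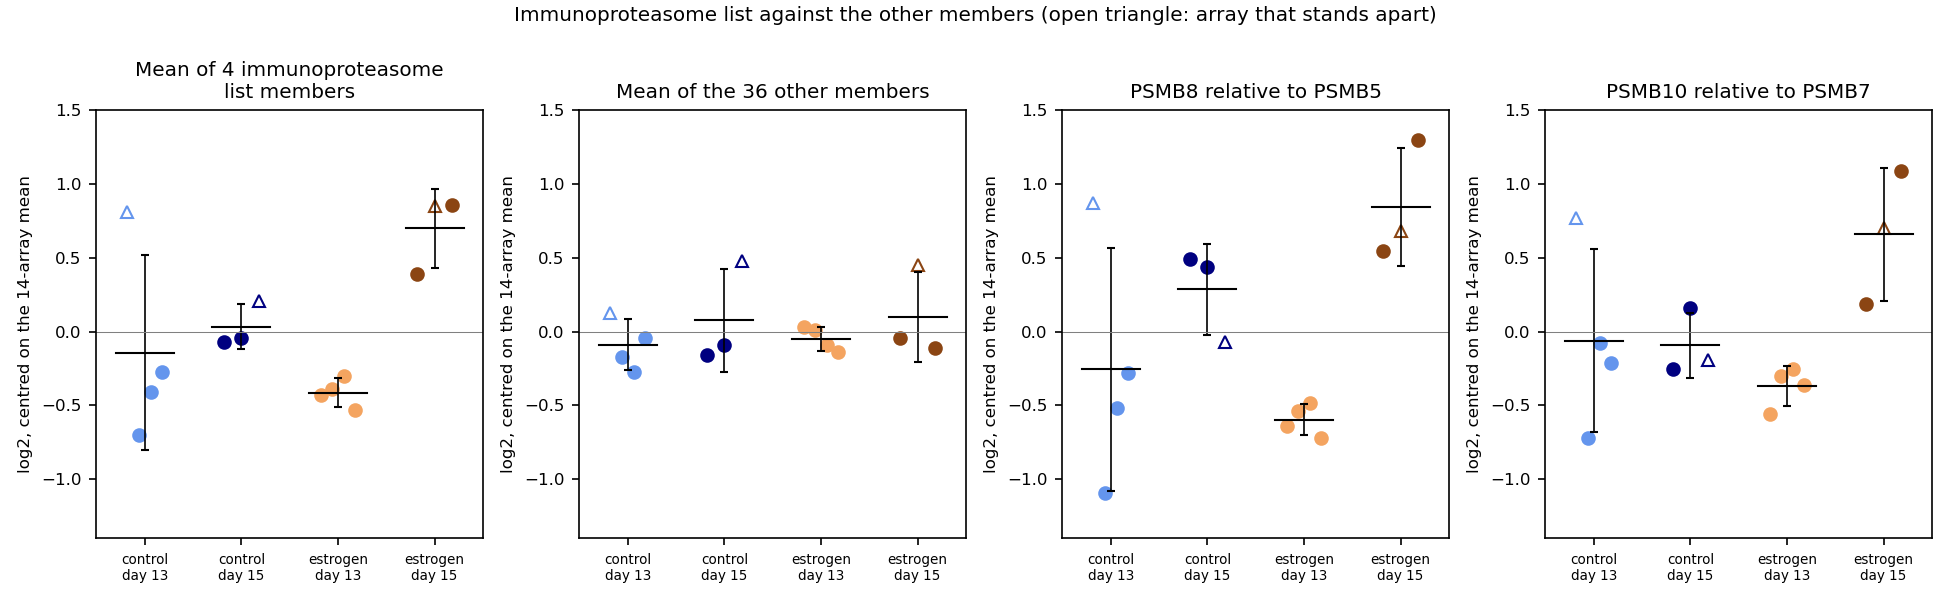
Per-array log2 values centred on the 14-array mean for the average of the 4 immunoproteasome list members, the average of the 36 other members, PSMB8 relative to PSMB5 and PSMB10 relative to PSMB7; bars are means, whiskers SDs, open triangles arrays that stand apart. The immunoproteasome average is -0.53 to -0.30 on day 13 and 0.39 to 0.86 on day 15 under estrogen, while the average of the others is -0.14 to 0.03 and -0.11 to 0.45.

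At day 15, all 4 measured members of the immunoproteasome list were higher in every estrogen gilt than in every control gilt. The differences were 0.76 ± 0.37 (SE) for PSMB10, 0.72 ± 0.25 for PSME2, 0.66 ± 0.41 for PSMB8 and 0.53 ± 0.24 for PSME1. Groups did not overlap in that direction for 4.12% of all probe sets tested, and among the other 36 members for 1, PSMA4. None was called: the adjusted p was 0.985 for each of the 4 in limma, no probe set passed (0%), and 642 probe sets had an unadjusted p under 0.05. PSMB5, PSMB6 and PSMB7 differed by 0.10, 0.05 and 0.02. Without the 3 arrays the differences of PSMB10, PSME2, PSMB8 and PSME1 were 0.76, 0.80, 0.59 and 0.58, also uncalled.

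At day 13 the 4 members were not higher under estrogen. The estrogen minus control differences were -0.43 for PSMB8, -0.35 for PSMB10, -0.16 for PSME2 and -0.14 for PSME1, with overlapping groups and no call for any probe set (0%; 485 had an unadjusted p under 0.05 in limma). These negative values rested on control day 13 replicate 1: without that array they were 0.02, 0.03, 0.07 and 0.08.

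The interaction, the estrogen effect at day 15 minus that at day 13, was 1.11 for PSMB10, 1.09 for PSMB8, 0.88 ± 0.33 (SE) for PSME2 and 0.67 for PSME1. None was called (limma adjusted p = 0.99 for PSME2, unadjusted p = 0.0178), and no probe set was (0%; 595 had an unadjusted p under 0.05 in limma). Among the 36 other members the median interaction was 0.05. In the fit without the 3 arrays the 4 values were 0.73, 0.57, 0.73 and 0.51 in the same order, uncalled. The same quantity is the day difference under estrogen minus that in controls, so a day difference that passed under estrogen was not shown to exceed that in controls.

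In control gilts the day difference was 0.57 ± 0.38 (SE) for PSMB8, 0.14 for PSMB10, 0.01 for PSME2 and -0.02 for PSME1, with no call for any probe set (0%; 656 had an unadjusted p under 0.05 in limma). Without the 3 arrays PSMB8 differed by 1.05 and its groups no longer overlapped, as for 12% of all probe sets, with an adjusted p of 0.447 in limma. PSMB10 then differed by 0.41, and its groups no longer overlapped either, while PSME2 and PSME1 differed by 0.10 and 0.06. Averaged over both treatments, PSMB8 was higher at day 15 by 1.11 ± 0.27 (SE; limma adjusted p = 0.255), where 0.00597% of probe sets were called. In the fit without the 3 arrays PSMB8 rose by 1.33 (limma adjusted p = 0.00376), where 0.985% of probe sets were called, and no other member passed; with the replicate block as well it rose by 1.42 (limma adjusted p = 0.0195; 0.603% called). PSMB8 also passed with array weights (0.71% called), and PSMB8 and PSMB10 passed without control day 13 replicate 1 (0.603% called). Averaged over both days, the estrogen effect was 0.28 for PSME2, 0.21 for PSMB10, 0.19 for PSME1 and 0.11 for PSMB8, with no call (0%; 539 probe sets had an unadjusted p under 0.05 in limma). On the other 11 arrays it was 0.44 for PSME2, 0.39 for PSMB10, 0.33 for PSME1 and 0.31 for PSMB8, uncalled (limma adjusted p of 0.453 to 0.654). PSME2, PSMB10 and PSME1 then had unadjusted p of 0.00248, 0.0363 and 0.00843 in limma, where 8.67% of all probe sets had one under 0.05. Without control day 13 replicate 1 alone the values were 0.40, 0.40, 0.30 and 0.34 in the same order, also uncalled.

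**Figure D3:**
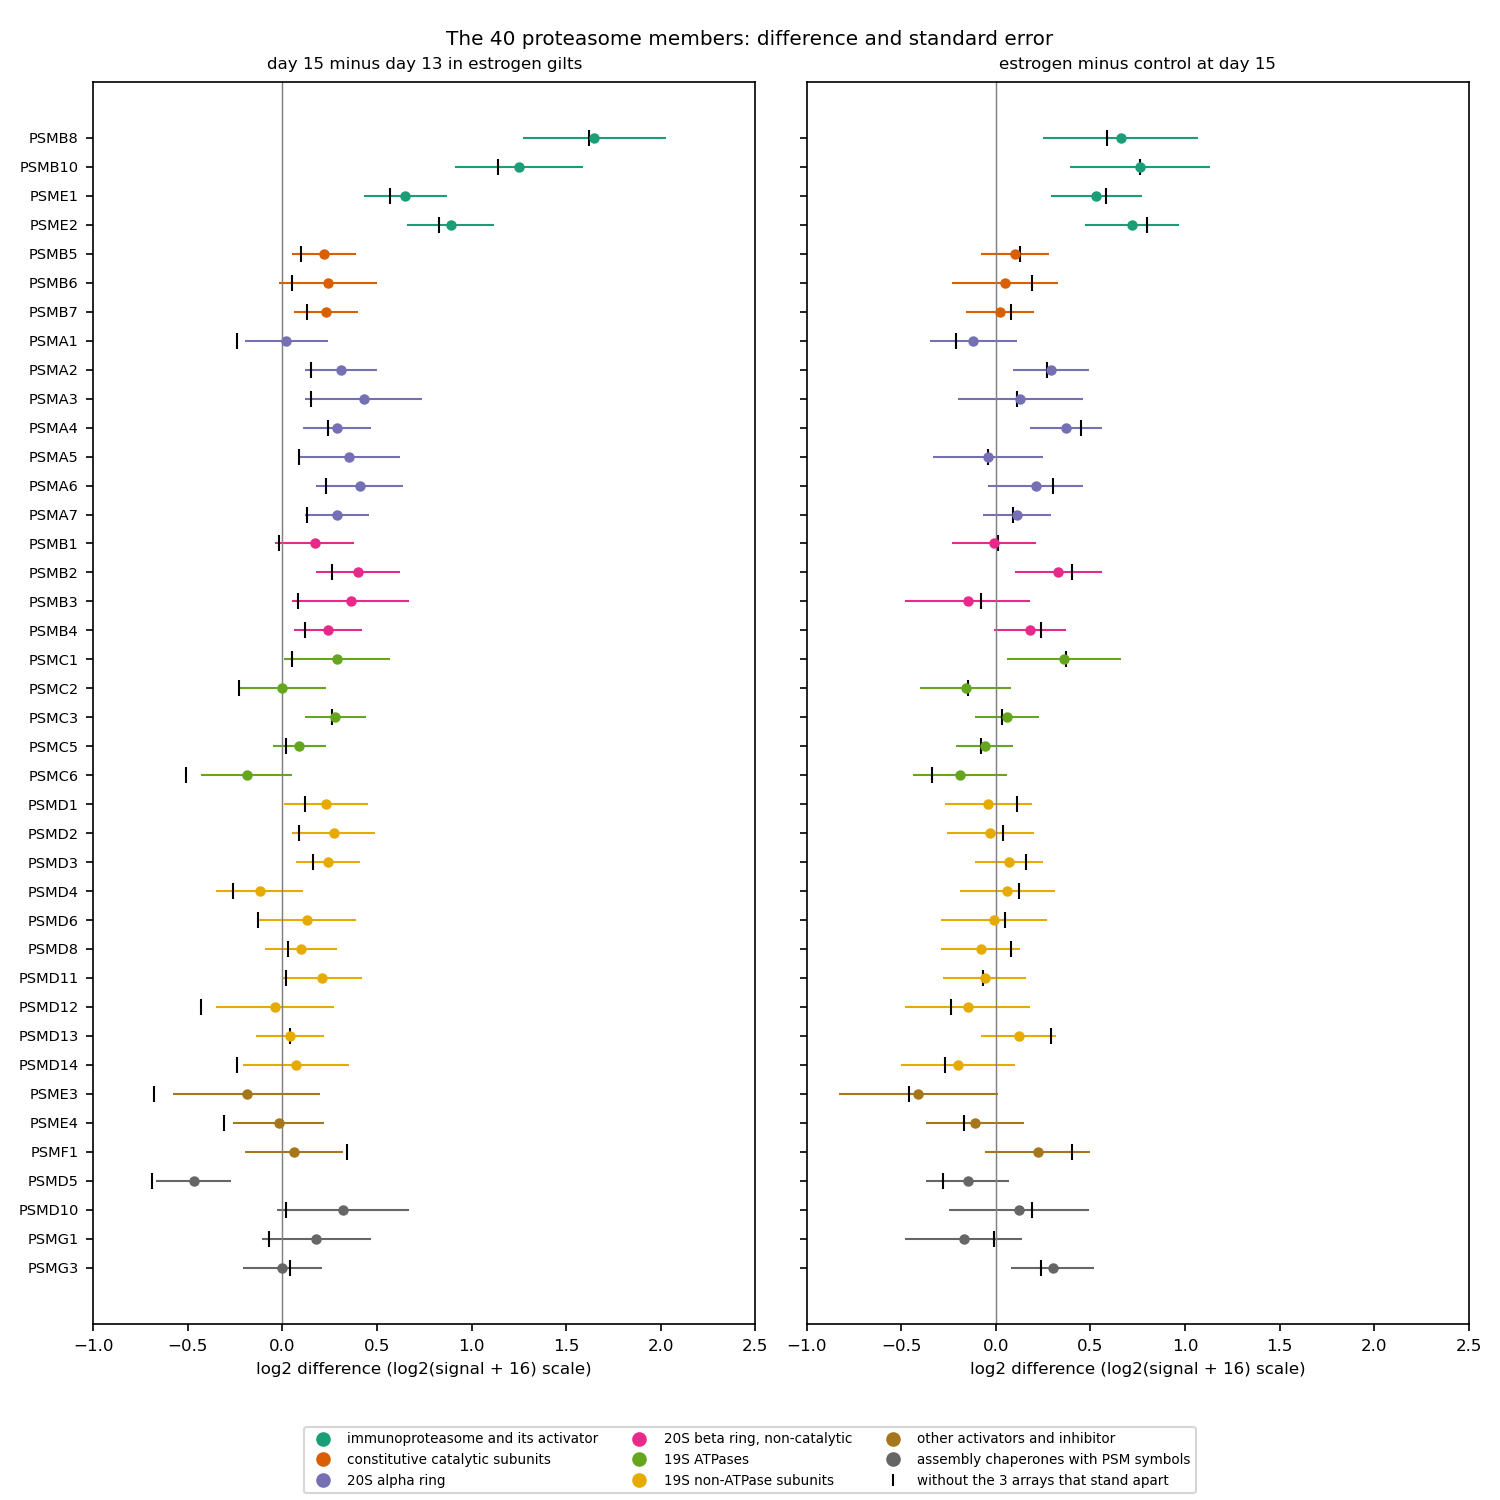
Log2 difference with standard error for each of the 40 members, coloured by role, for day 15 minus day 13 under estrogen (left) and estrogen minus control at day 15 (right); black ticks are the values without the 3 arrays that stand apart. The 4 immunoproteasome list members lie at 0.65 to 1.65 on the left and 0.53 to 0.76 on the right, and the other 36 at -0.47 to 0.43 and -0.41 to 0.37.

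The other members of the 20S core showed small day differences under estrogen. The differences of all 7 alpha subunits, which form the outer gate rings, were positive, with a median of 0.31 and a range of 0.02 ± 0.22 (SE) for PSMA1 to 0.43. The median was 0.15 without the 3 arrays, and the range -0.24, for PSMA1, to 0.24. PSMA3 had the largest, with 12.03, 12.00, 12.00 and 11.76 at day 13 and 12.30, 12.93 and 11.91 at day 15. PSMA4 and PSMA6 had groups that did not overlap, with day 15 higher, as for 7.96% of all probe sets. Their mean differences were 0.29 and 0.41. The highest day 13 and lowest day 15 values were 12.11 and 12.22 for PSMA4, and 11.95 and 11.99 for PSMA6. The 4 non-catalytic beta subunits differed by 0.17 to 0.40, and PSMB2 had the largest, with 11.32, 11.14, 11.13 and 10.91 at day 13 and 11.26, 11.82 and 11.50 at day 15. These 4 differed by -0.02 to 0.26 without the 3 arrays. None of the 11 had an unadjusted p under 0.05 with or without the 3 arrays, against 8.61% of all probe sets tested with all arrays.

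In the 19S cap, the ATPases, which unfold the substrate, had a median day difference of 0.09 under estrogen. PSMC1 was the highest at 0.29, with 10.32, 10.65, 10.38 and 9.80 at day 13 and 10.17, 11.07 and 10.50 at day 15. PSMC6 was the lowest at -0.19, with 11.33, 11.52, 11.60 and 11.17 at day 13 and 11.03, 11.84 and 10.76 at day 15; its day 15 values span more than its day 13 values, with replicate 2 at the top. The 10 non-ATPase subunits, among them the ubiquitin receptor PSMD4 and the deubiquitinase PSMD14, had a median of 0.11, from -0.12 for PSMD4 to 0.27 for the scaffold subunit PSMD2. None of these 15 had an unadjusted p under 0.05 with all arrays. The ATPases and the non-ATPase subunits each had a median of 0.02 without the 3 arrays. PSMC6 then differed by -0.51 ± 0.16 (SE), with an unadjusted p of 0.00968 and an adjusted p of 0.154 in limma, where 16.7% of all probe sets had an unadjusted p under 0.05. The groups of PSMC6, PSMC2 (-0.23), PSMD12 (-0.43) and PSMD4 (-0.26) did not overlap in that fit, with day 15 lower, as for 13.3% of all probe sets.

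Among the other activators, PSME3, the nuclear PA28 gamma subunit, had levels of 9.01, 8.97, 8.67 and 8.58 at day 13 and 8.06, 9.61 and 8.20 at day 15 under estrogen. Replicate 2 was the highest and the other day 15 gilts were the lowest, so the difference was -0.19 with all arrays and -0.68 without the 3 (limma adjusted p = 0.179). PSME4, the PA200 activator, differed by -0.02, and PSMF1, the PI31 inhibitor, by 0.06. Of the chaperones that build the cap and core, PSMD5 had 10.46, 10.26, 10.25 and 10.02 at day 13 and 9.51, 10.21 and 9.60 at day 15. Its difference of -0.47 ± 0.20 (SE) had the only unadjusted p under 0.05 on the low side among the members with all arrays (0.0366, limma adjusted p = 0.551). Of all probe sets 8.61% had one in either direction and 4.77% on the high side. Without the 3 arrays the difference was -0.69 (limma adjusted p = 0.1). PSMD10, PSMG1 and PSMG3 differed by 0.32, 0.18 and 0.00. Estrogen minus control at day 13 was 0.44 for PSMD5, with overlapping groups and means of 10.25 and 9.81. No other member had an unadjusted p under 0.05 in that comparison, against 2.89% of all probe sets. The day 15 means of PSMD5 were 9.78 under estrogen and 9.92 in controls.

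Over the 36 members outside the immunoproteasome list, the day difference was positive for 30 in controls and 29 under estrogen, with medians of 0.18 and 0.21, against 0.01 and 0.08 over all 5785 genes tested. It exceeded its SE in the positive direction for 8 in controls and 16 under estrogen, and in the negative direction for 1 in each treatment. This shift went with arrays that stand apart. For 17 of the 40 members, 42.5%, all 3 such arrays lay above all the other 11, against 7.22% of all probe sets tested; the 17 included PSMB5, PSMB6 and PSMB7 and 5 of the 7 alpha subunits, but none of the immunoproteasome list or of the ATPases. PSMA3, for example, read 12.79, 12.76 and 12.93 on those arrays and at most 12.30 elsewhere. Without the 3 arrays the median day differences of the 36 were 0.02 in controls and 0.05 under estrogen, while the median of the immunoproteasome list under estrogen was 0.98, against 1.07 with all arrays. The estrogen effect on the 36 had a median of 0.02 at day 13 and 0.00 at day 15, and of 0.13 and 0.08 without the 3 arrays.

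**Figure D4:**
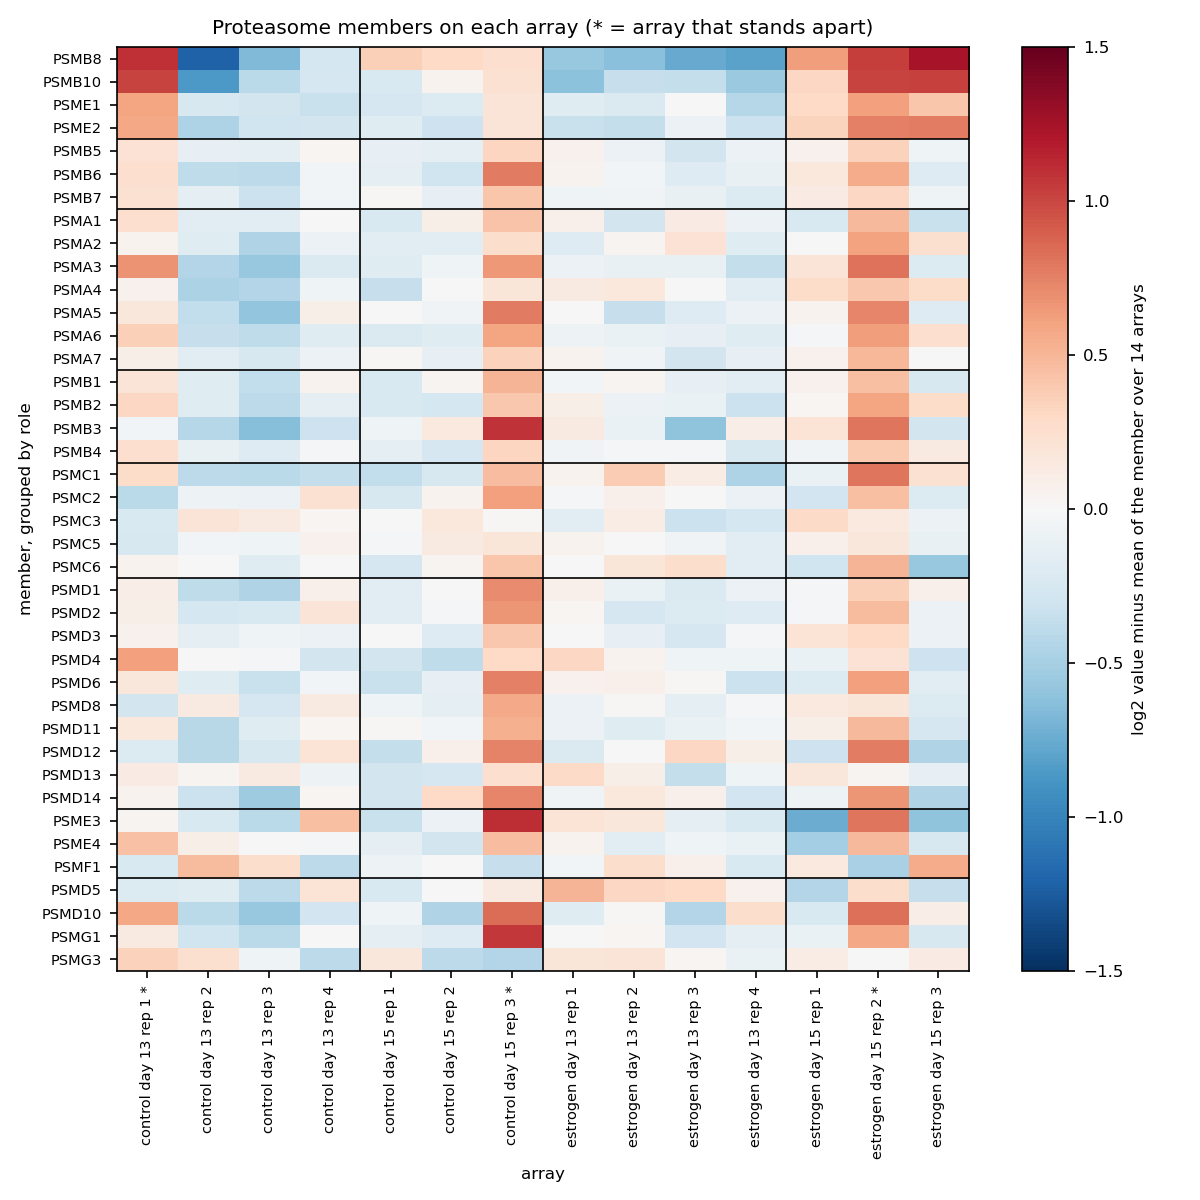
Each member's log2(signal + 16) minus its own mean over the 14 arrays (colour, from -1.5 to 1.5), with members grouped by role in rows and arrays by group in columns; asterisks mark the 3 arrays that stand apart. The standard subunits are high mainly on control day 15 replicate 3 and estrogen day 15 replicate 2, and PSMB8, PSMB10, PSME1 and PSME2 are high on all 3 day 15 estrogen arrays and on control day 13 replicate 1.

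Genes that act beside the immunoproteasome were read from lists of class I antigen processing, interferon gamma targets and the ubiquitin system. Of the 15 class I genes tested, 13 were higher at day 15 than at day 13 under estrogen, with a median difference of 0.33. The differences were 1.34 ± 0.38 (SE) for TAP1, which pumps peptides into the endoplasmic reticulum and neighbours PSMB8, 0.81 ± 0.30 for TAPBP, tapasin, and -0.06 for B2M, the class I light chain. TAP1 had levels of 8.72, 8.40, 8.50 and 9.45 at day 13 and 10.27, 9.66 and 10.39 at day 15, without overlap. Of the 15 interferon gamma genes tested, 13 were higher, with a median of 1.17 and 9 at an unadjusted p under 0.05 (8.61% of all probe sets), among them the chemokine CXCL9 (4.43), the GTPase GBP1 (2.29), the class II activator CIITA (2.37), the ubiquitin-like UBD (2.06) and the transcription factor IRF1 (1.17). Replicate 3 held the highest day 15 estrogen value of each interferon gamma gene named here, such as 12.57 for CXCL9 against 10.08 and 9.15. In controls CXCL9 was at 6.43 to 7.06 at day 13 and at 9.89, 10.14 and 5.04 at day 15. GBP1 was at 7.96 to 8.79 and then 9.40 to 10.01 in controls, without overlap, as for 1.74% of all probe sets. The control groups of CIITA, UBD and IRF1 overlapped with all arrays. They did not overlap without the 3 arrays that stand apart, with day 15 higher, as for 12% of all probe sets. In controls CIITA then read 5.43 to 5.74 at day 13 and 7.24 to 7.25 at day 15. UBD read 8.37 to 8.69 and then 9.81 to 9.87, and IRF1 at most 9.07 and then at least 9.30. IFNG itself was among the dim probe sets and was not tested. None of these genes was called with all arrays, and without the 3 arrays 1 class I gene and 7 interferon gamma genes rose, where 1.32% of all probe sets were called.

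In the ubiquitin list, of 13 genes tested 7 were higher at day 15 under estrogen, with a median of 0.08. ISG15, the interferon-induced ubiquitin-like protein, differed by 1.29 ± 0.35 (SE) and ZFAND2A, a stress-induced proteasome partner, by -0.94 ± 0.21, neither called with all arrays. At day 15 the estrogen minus control medians were 0.20 for the class I list, 0.64 for the interferon gamma list and 0.07 for the ubiquitin list, with 13 of 15, 11 of 15 and 8 of 13 genes higher, against a median of 0.05 over all genes tested. In controls the day difference had medians of -0.10, 0.31 and 0.06 for the same lists. The medians in that order without the 3 arrays were 0.27, 1.28 and -0.05 for the day difference under estrogen, 0.19, 0.66 and 0.07 for estrogen minus control at day 15, and 0.01, 0.39 and -0.02 for the day difference in controls.

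**Figure D5:**
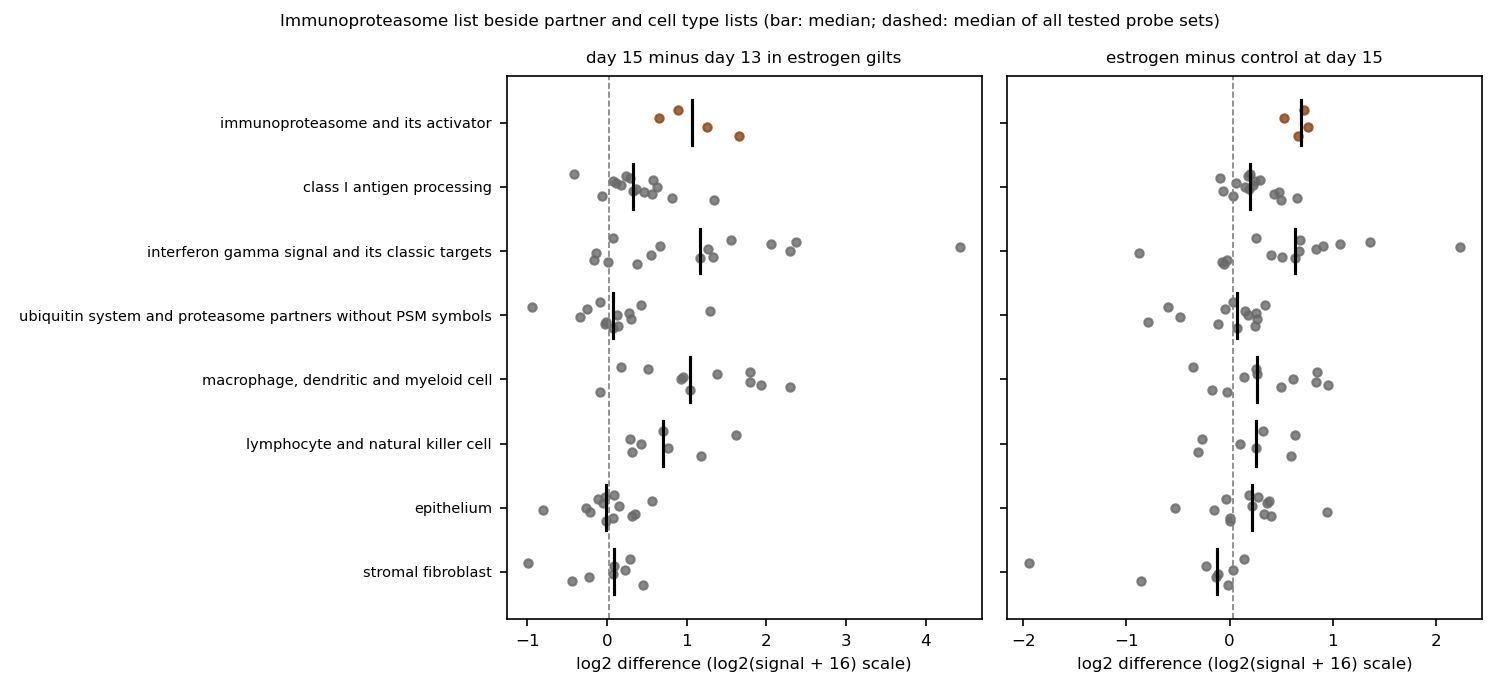
Log2 differences of single genes (points) in the immunoproteasome list, 3 partner lists and 4 cell type marker lists, for day 15 minus day 13 under estrogen (left) and estrogen minus control at day 15 (right); bars are list medians and the dashed line the median of all tested probe sets. Under estrogen the day medians are 1.07 for the immunoproteasome list, 1.17 for interferon gamma genes, 1.04 for macrophage markers, 0.70 for lymphocyte markers and -0.01 for epithelial markers.

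Markers of white blood cells, which carry much immunoproteasome, moved with the day difference. Of 11 macrophage, dendritic and myeloid markers tested, 10 were higher at day 15 under estrogen, with a median of 1.04, and their summed signal was 1757 to 3447 at day 13 and 4381 to 6472 at day 15. Of 7 lymphocyte and natural killer markers tested, 7 were higher, with a median of 0.70 and sums of 447 to 716 and 853 to 1618. The T-cell markers CD2, CD3G and CD4, the cytotoxic genes PRF1 and GNLY and the myeloid ITGAM were dim and not tested. In controls the macrophage sums were 1866 to 5888 at day 13 and 3589 to 5539 at day 15. The lymphocyte sums were 534 to 1059 and 523 to 1192. The highest day 13 control sum of both lists was on replicate 1, the gilt with high PSMB8 and PSMB10. Among day 13 controls that gilt was highest for AIF1, TYROBP, FCER1G, C1QA, C1QC (11.56) and CD86, and for every lymphocyte marker but CD8B. It was lowest for CD14 (5.70) and S100A9 (5.65), and CD163, MRC1 and CD209 lay within the range of the other gilts. At day 15, estrogen minus control, 8 of 11 macrophage and 5 of 7 lymphocyte markers were higher, with medians of 0.27 and 0.26 and 0 of these 18 markers without overlap, against 4.12% of all probe sets. On the other arrays alone, 11 of 11 and 4 of 7 were higher at day 15 under estrogen than in controls, and 3 macrophage and 1 lymphocyte markers did not overlap, against 18.6% of all probe sets. Without the 3 arrays the day difference of the macrophage markers had a median of 1.15 in controls and 1.23 under estrogen, and that of the immunoproteasome list a median of 0.26 in controls and 0.98 under estrogen. Epithelial and stromal fibroblast markers had day medians of -0.01 and 0.09 under estrogen. The part of these cell markers in the results was not tested, and in whole tissue more cells of a type and more RNA per cell cannot be told apart.

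RNA quality also differed among the day 15 estrogen gilts. The signal of the 3' probe sets minus that of the 5' probe sets of GAPDH, a measure of RNA shortening, was 2.55 and 2.84 (log2) in replicates 1 and 3 and 1.36 in replicate 2, against 1.86 to 2.20 in the day 13 estrogen gilts. With a score of such differences for GAPDH, actin and elongation factor 1 alpha as a term in the fit the day differences under estrogen were 1.71 for PSMB8, 1.46 for PSMB10, 1.00 for PSME2 and 0.76 for PSME1, uncalled (limma adjusted p of 0.179 to 0.214). Those of PSMB5, PSMB6 and PSMB7 were then 0.40, 0.57 and 0.38, also uncalled (limma adjusted p of 0.27 to 0.319), and their estrogen minus control differences at day 15 were 0.31, 0.42 and 0.19. The score was 1.88 and 1.44 in day 15 estrogen replicates 1 and 3 and at most 0.49 on every other array. Without the 3 arrays these replicates made up the whole day 15 estrogen group, so day and RNA quality cannot be told apart there. With the score in that fit no member was called for the day difference under estrogen or averaged over both treatments.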

How the data were processed

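Endometrial RNA of 14 gilts was hybridised to 1 Affymetrix porcine array per gilt, per the labels' protocols. The deposited values are linear signal intensity per probe set, as the authors made them; all arrays share a 2% trimmed mean of 500.1, so they had been scaled, and the software and its settings are not given in the sources used here. The arrays' number limits the precision. Of 24123 probe sets, 188 controls were left out; of the rest 10069 had 1 gene symbol in the platform annotation, 198 several and 13668 none. All 40 members matched the RefSeq table under the same symbol. Signals were taken as log2(signal + 16), the dimmest 30% by mean (under 6.35) were left out, and 1 model over all 4 groups was fitted in limma 3.58.1 (R 4.3.3; lmFit, eBayes with trend), with Benjamini-Hochberg adjustment over 16754 probe sets and a threshold of 0.05. The model was tested on simulated data. No detection calls were used. An array stands apart when its median correlation lies over 3 median absolute deviations below the arrays' median. Figures were drawn in Python 3.11.15.

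Members, role lists, partner lists and tests were chosen with earlier results of these data known. Every member may be named. Array values are given for the immunoproteasome and catalytic lists, for called members, and for the largest rise or fall of a role list, partner genes being named as examples. Alternatives covered the filter, scaling, pseudocount, variance trend, array weights, the groups fitted, a replicate block, RNA quality and left-out arrays; the block joined with left-out arrays or weights was added after seeing the data.

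Replicate numbers run within each group. At day 13 the deviations of same-numbered estrogen and control gilts correlated at 0.13 to 0.28 in all 4 pairs, so the numbers may pair those gilts; the other comparisons had correlations of -0.38 to 0.24, and the labels give no pairing.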

Additional observations from a re-analysis of the deposited data

Results flagged for a closer look

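Over the 40 members in the 2 groups of 4 gilts, 6 of 80 sets of 4 values held 1 that lay far from the other 3 by Dixon's test, which chance does in about 1 group of 20. On control day 13 replicate 1, PSME1 was at 12.11 with the others at 11.19 to 11.28, and PSMC1 at 10.54 with the others at 9.86 to 9.91. On estrogen day 13 replicate 4, PSMA3 was at 11.76 (others 12.00 to 12.03), PSMB4 at 11.75 (others 11.94 to 11.97) and PSMD6 at 10.33 (others 10.67 to 10.73). On estrogen day 13 replicate 3, PSME2 was at 10.97 with the others at 10.71 to 10.74.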

How the results depend on the processing

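With all arrays no member was called for day 15 minus day 13 under estrogen. With array quality weights 3 were (PSMB8, PSMB10 and PSME2; 1% of all probe sets called), without the 3 arrays that stand apart 3 (the same genes), and with only the groups compared 2 (PSMB8 and PSMB10; 0.591%). No member passed without the 3 arrays and with the RNA quality score in the fit. Leaving out each array in turn gave 0 to 3; the 3 came without control day 13 replicate 1, an array outside the comparison, where the difference of PSMB8 was still 1.65 and its SE 0.21 instead of 0.38 (0.263% called). Averaged over both treatments, the count was 1 (PSMB8) with array weights and without the 3 arrays, and 0 to 2 on leaving out each array, the 2 being PSMB8 and PSMB10 without control day 13 replicate 1. The estrogen minus control differences at day 13 of PSMB8 and PSMB10 were -0.75 to 0.02 and -0.59 to 0.03 on leaving out each array, the upper values without that array, and 0.02 and 0.03 without the 3. Over 30 alternatives the PSMB8 day difference under estrogen was 1.52 to 2.22, with adjusted p in limma of 0.0125 to 0.576; it was 1.64 with the replicate block and all arrays, where no member call could be lost and its adjusted p in limma went from 0.206 to 0.473. The block was then added, after seeing the data, to 3 settings in which members passed. Without the 3 arrays the count under estrogen fell from 3 to 1 (PSMB8), and from 3 to 0 both without control day 13 replicate 1 and with array weights (adjusted p of 0.0639 and 0.0625 for PSMB8 in limma). Averaged over both treatments the counts in that order were 1 (PSMB8), 1 (PSMB8) and 0. With the block the day 13 differences of PSMB8 and PSMB10 were 0.05 and 0.13 without the 3 arrays and 0.05 and 0.14 without control day 13 replicate 1. With the block and without the 3 arrays, the immunoproteasome median for the interaction was 0.48, against 0.98 with all arrays and no block. With the block and without control day 13 replicate 1, its median for the control day difference was 0.49. A turn of sign was counted only for values that exceeded their SE with all arrays. The immunoproteasome list members and catalytic subunits have 1 probe set each, so other probe sets or their mean gave no separate value. With 3 or 4 gilts a group, and 2 without the 3 arrays, the day 15 groups limit every comparison. PSMD11 has 2 other probe sets, at -0.66 and -0.08 for estrogen minus control at day 15 against -0.06 on the one used. The value of -0.66 had an unadjusted p of 0.0457 in limma and was uncalled. Without the 3 arrays that probe set was at -0.62, and its day difference under estrogen at -0.50, both uncalled. Neither then overlapped, with the lower side as for 18.6% and 13.3% of all probe sets. PSMC2, PSMD1 and PSMF1 also have other probe sets, at 0.01 and -0.23, 0.03, and -0.25 for estrogen minus control at day 15.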
